A study of Mus musculus with 10 samples.

Results

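Genes of secreted acute-phase proteins and antiproteases were followed by their probe sets on 10 Affymetrix arrays. The 10 genes were Lcn2, Saa3, Hp, Lbp, Ptx3, C3, Slpi, Wfdc18, Serpina3n and Il1rn. They had been picked for their response to MAL in 10T1/2 cells, with and without knockdown of Med23, so every value from 10T1/2 cells is a description of that choice and carries no test. Probe sets with a single gene symbol were found for 9 of the 10, which gave 13 probe sets of 45101 and 9 genes of 18193, and C3 was not analysed here. Il1rn had 3 probe sets, Lbp and Ptx3 had more than 1, and each gene is given by its brightest probe set (by the mean of all 10 arrays) unless another is named.

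Acute-phase proteins are secreted in greater amounts during inflammation. The liver makes most of those in blood, and fibroblasts, epithelia and macrophages make several of them locally. The cytokines IL-1, IL-6 and TNF raise their genes through the transcription factors NF-kB, C/EBP and STAT3. Antiproteases such as SLPI and the serpins hold back the proteases that neutrophils and mast cells release at such sites. MAL, whose gene is Mrtfa, is a coactivator of SRF that is set free when actin polymerises, and the product of Med23 is part of Mediator, through which transcription factors reach RNA polymerase II.

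The 10T1/2 line, a mouse embryonic fibroblast line that can turn into several mesenchymal cell types, gave 4 arrays. They were overexpression of MAL together with knockdown of Med23, overexpression of MAL alone, knockdown of Med23 alone, and cells labelled as control. Mouse embryonic fibroblasts (MEFs) of day 9.5 embryos, immortalised by growth in culture, gave 6 arrays: Med23 knockout (KO) cells and wild-type (WT) cells, each taken at 0 min, before serum, and at 30 and 90 min after it was added. Each condition had 1 array, so no value has a replicate, and the precision is limited by how few arrays there are. The labels do not say how MAL was expressed, how Med23 was knocked down or how many lines of each genotype there were.

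Values are log2 expression values as deposited, so a difference of 1 is 2-fold. They ran from 1.85 to 14.70 over all probe sets, with array medians from 3.64 to 3.93, and a level at or below the median of its array was taken as open. Of 10 fibroblast marker genes, 8 stood above the array median on every MEF array and 9 on every 10T1/2 array, while Thy1 in the MEFs and Fap in both kinds of cell did not. Med23 read 3.94 with MAL and knockdown, 5.67 with MAL, 4.24 with the knockdown and 5.45 in control 10T1/2 cells. In the MEFs it read at most 3.30 in KO cells and at least 6.90 in WT cells. The probe set of Mrtfa (8.44, 8.33, 8.54 and 8.65 on the 10T1/2 arrays in that order) did not stand higher with MAL, and the labels do not say whether it covers the overexpressed sequence. Among 16 genes known as MAL and SRF targets, 8 stood at least 2-fold higher with MAL in knockdown cells and 7 without the knockdown, and none lower. Of all genes 8.41% and 4.31% stood higher and 3.72% and 4.11% lower. With the knockdown alone 8 of the 16 were also at least 2-fold higher, beside 6.01% of all genes. Of the 16, Tagln, which encodes an actin-binding protein of smooth muscle, read 11.17 with MAL and knockdown, 10.12 with MAL, 7.78 with the knockdown and 6.64 in the control.

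The genes of 4 antimicrobial and transport proteins, Hp, Lcn2, Lbp and Saa3, were at least 7.26-fold lower with MAL in cells without the knockdown, and 3 of them were also lower with MAL in knockdown cells. Hp encodes haptoglobin, which binds free haemoglobin. It read 6.32 with MAL and knockdown, 4.07 with MAL alone, 8.86 with the knockdown alone and 9.77 in the control. Its MAL difference was -2.54 in knockdown cells and -5.70 without the knockdown, which is 5.82-fold and 52-fold lower. The second of these was the lowest difference of all 12440 genes measured in 10T1/2 cells. Lcn2 encodes lipocalin 2, which binds bacterial siderophores and so withholds iron. It read 3.64 with MAL and knockdown, 2.84 with MAL alone, 5.73 with the knockdown alone and 8.17 in the control. Both levels with MAL lay at or below their array medians of 3.64 and 3.70, so the order of these 2 arrays is open. With MAL, Lcn2 was at least 4.26-fold lower in knockdown cells and at least 22.2-fold lower without the knockdown. In such bulk samples fewer producing cells and less RNA per cell cannot be told apart.

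Lbp encodes the lipopolysaccharide-binding protein, which hands bacterial endotoxin to CD14. It read 5.62 with MAL and knockdown, 4.17 with MAL, 8.01 with the knockdown and 8.62 in the control. The MAL difference was -2.39 in knockdown cells and -4.45 without the knockdown. The second probe set of Lbp lay at or below the array median on all 4 of these arrays and adds nothing here. Saa3 encodes a serum amyloid A protein that mouse tissues other than liver make in inflammation. It read 6.04 with MAL and knockdown, 4.89 with MAL, 5.46 with the knockdown and 7.75 in the control. Saa3 was therefore 1.49-fold higher with MAL in knockdown cells and 7.26-fold lower with MAL in cells without the knockdown. Of the 9 genes, Saa3 alone had MAL differences of opposite sign.

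**Figure D1:**
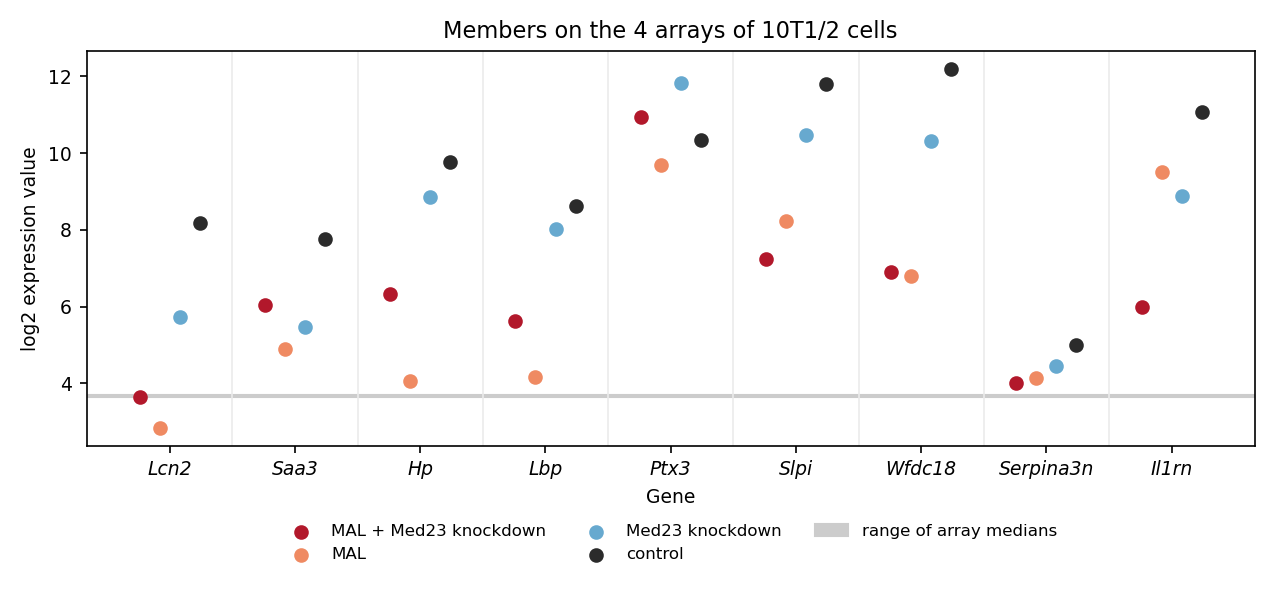
Log2 expression values (vertical axis) of the 9 genes on the 4 arrays of 10T1/2 cells, 1 point an array, with the range of the 4 array medians in grey. The control is the highest point for every gene but Ptx3, and for Hp, Lbp, Saa3, Wfdc18 and Ptx3 the lowest point is MAL alone, while the 2 Lcn2 points with MAL lie at or below the array medians.

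The antiprotease genes divided. Slpi encodes the secretory leukocyte protease inhibitor, which blocks neutrophil elastase. It read 7.25 with MAL and knockdown, 8.24 with MAL, 10.47 with the knockdown and 11.80 in the control. Its MAL differences of -3.22 in knockdown cells and -3.56 without the knockdown were close to each other. Wfdc18 encodes a small secreted protein with the same four-disulfide core as SLPI, known as a product of mammary epithelium. It read 6.90 with MAL and knockdown, 6.81 with MAL, 10.31 with the knockdown and 12.20 in the control. With MAL it was 10.6-fold lower in knockdown cells and 41.9-fold lower without the knockdown, and the 2 levels with MAL differed by 0.09. Its probe set, which carries the suffix s_at, is of a kind that can match more than 1 gene, and the share of a related gene in its signal was not tested. Serpina3n, a serpin that inhibits granzyme B and neutrophil proteases, read 4.02, 4.14, 4.44 and 5.01 on the same 4 arrays in the same order. Its MAL differences of -0.42 in knockdown cells and -0.87 without the knockdown stayed within 2-fold.

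Il1rn encodes the IL-1 receptor antagonist, which occupies the receptor without signalling. It read 5.98 with MAL and knockdown, 9.50 with MAL, 8.89 with the knockdown and 11.07 in the control. Here the MAL difference was larger in knockdown cells, -2.91 against -1.57 without the knockdown. The other 2 probe sets of Il1rn gave -2.90 and -2.49 in knockdown cells, and -2.03 and -1.62 without the knockdown. Ptx3 encodes the long pentraxin 3, a soluble recognition molecule that binds microbes and complement. It read 10.95 with MAL and knockdown, 9.68 with MAL, 11.83 with the knockdown and 10.35 in the control. Its MAL differences of -0.88 in knockdown cells and -0.67 without the knockdown were within 2-fold, and those of its second probe set were -0.67 and -0.55.

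Counted at 2-fold, 6 of the 9 genes were lower with MAL in knockdown cells, beside 3.72% of all genes, and 7 without the knockdown, beside 4.11%. None was higher in either setting, beside 8.41% of all genes in knockdown cells and 4.31% without the knockdown. The median difference was -2.39 and -3.56 over the members and -0.11 and 0.01 over all genes in the same order. The members had been picked by these contrasts, so the counts describe the choice only. The MAL difference in knockdown cells minus that without the knockdown was at least 1 for 5 members (5.38% of all genes). These were Saa3 (3.44), Lcn2 (3.24), Hp (3.16), Lbp (2.06) and Wfdc18 (1.98). An unchanged MAL difference in knockdown cells would have put Lcn2, Saa3, Hp and Lbp below the array medians, where levels are open. Both Lcn2 levels with MAL were open. With them raised to the array medians its value was 2.38, which is no lower limit, so the value of Lcn2 is open. The value was negative beyond the limit for Il1rn (-1.34, beside 1.8% of all genes) and within 2-fold for Slpi (0.34), Serpina3n (0.45) and Ptx3 (-0.21).

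**Figure D2:**
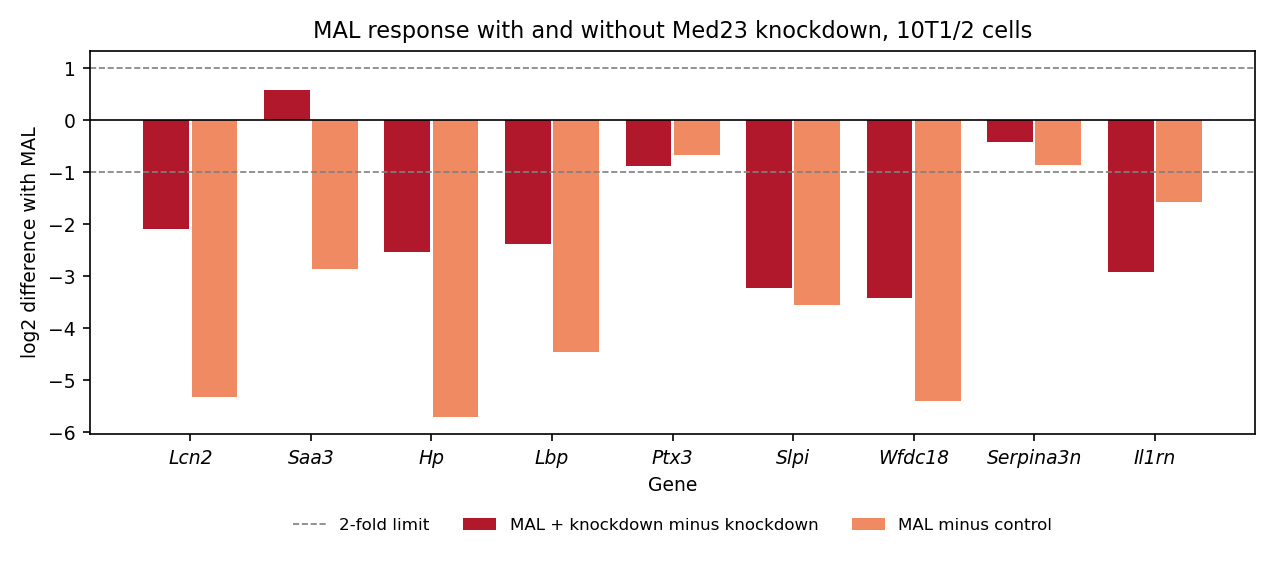
Log2 difference with MAL (vertical axis) of each gene, in cells with the knockdown (MAL and knockdown minus knockdown, left bar) and in cells without it (MAL minus control, right bar), 1 pair of arrays a bar. The right bar is the longer one for Lcn2, Hp, Lbp and Wfdc18, the left bar is the longer one for Il1rn, and Saa3 has bars on opposite sides of 0. Each Lcn2 bar rests on an open level with MAL.

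Knockdown of Med23 alone was already accompanied by lower levels. Without MAL, 5 of the 9 genes were at least 2-fold lower in knockdown cells than in the control (1.61% of all genes) and 1 was higher (6.01%). The lower genes were Lcn2 (-2.44), Saa3 (-2.29), Il1rn (-2.18), Wfdc18 (-1.89) and Slpi (-1.33), and the higher gene was Ptx3 (1.48). For Ptx3 the second probe set gave -0.56, so its probe sets disagree. In cells with MAL, 4 genes stood at least 2-fold higher with the knockdown than without it (10.9%) and 1 stood lower (3.49%). Those higher were Hp (2.25), Lbp (1.45), Ptx3 (1.27) and Saa3 (1.15), and Il1rn (-3.52) was lower. The second probe set of Ptx3 gave -0.68 here. These comparisons share arrays with those of MAL above. Measured from the control, both treatments together gave -5.09 for Il1rn, beyond the -3.75 that the single differences add up to. For Slpi they gave -4.55 against a sum of -4.89, and for Wfdc18 -5.30 against -7.28. They gave -4.53 against -7.77 for Lcn2, -1.71 against -5.15 for Saa3, -3.45 against -6.61 for Hp and -3.00 against -5.06 for Lbp. From the control, the sums for Lcn2, Saa3, Hp and Lbp lead to levels below the array medians, which are open. By how much Saa3, Hp and Lbp stayed short of the sum is therefore open. Lcn2 was itself open with both treatments, so whether it stayed short cannot be told.

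Because 7 of the 9 genes were lower together with MAL, their promoters were read for the sites of the factors named above. The RefSeq table of assembly GRCm38.p6 held a start for 7 of the 9, with 9 windows in all since Il1rn had 3, and held none for Hp and Lbp. The 250 bases before each start were searched on both strands for TTNNGNAA, a core of C/EBP sites, for GGG and CC with any 5 bases between them, the frame of NF-kB sites, and for the CArG box of SRF. The C/EBP core was found in Lcn2, Saa3, Ptx3, Slpi, Serpina3n and Il1rn, in 7 of the 9 windows, beside 36.8% of all 32851 windows of this length. The last 2 windows of Il1rn share 170 bases and 1 of these cores, which is counted in both. The NF-kB frame was found in Lcn2, Serpina3n and Il1rn, in 4 of the 9 windows, beside 45.8%. No CArG box was found in any of the 9 windows, beside 1.47% of all. Windows of Lcn2, Saa3, Slpi and Wfdc18, which were lower with MAL, and of Ptx3, which was within 2-fold, are shown 5′ to 3′ as far as the base before the start. Capitals mark matches, which are C/EBP cores except for GGACTACCCC in Lcn2, an NF-kB frame on the other strand, and no 2 different motifs overlap in these windows.
Lcn2 (chr2:32387740-32387989, minus strand): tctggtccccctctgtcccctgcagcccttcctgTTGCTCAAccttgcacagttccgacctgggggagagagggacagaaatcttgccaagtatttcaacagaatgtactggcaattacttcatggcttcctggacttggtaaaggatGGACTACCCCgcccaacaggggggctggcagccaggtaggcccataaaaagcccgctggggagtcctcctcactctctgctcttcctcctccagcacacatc
Saa3 (chr7:46715677-46715926, minus strand): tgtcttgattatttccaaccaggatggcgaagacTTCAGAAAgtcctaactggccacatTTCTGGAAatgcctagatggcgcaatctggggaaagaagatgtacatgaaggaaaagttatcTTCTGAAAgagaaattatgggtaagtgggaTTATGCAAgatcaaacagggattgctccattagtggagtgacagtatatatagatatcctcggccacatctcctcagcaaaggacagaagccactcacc
Slpi (chr2:164356508-164356757, minus strand): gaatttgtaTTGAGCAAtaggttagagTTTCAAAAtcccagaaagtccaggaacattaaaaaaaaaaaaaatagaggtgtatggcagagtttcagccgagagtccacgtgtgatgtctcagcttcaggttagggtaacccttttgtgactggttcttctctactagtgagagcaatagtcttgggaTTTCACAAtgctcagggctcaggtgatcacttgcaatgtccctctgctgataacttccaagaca
Wfdc18 (chr11:83708754-83709003, plus strand): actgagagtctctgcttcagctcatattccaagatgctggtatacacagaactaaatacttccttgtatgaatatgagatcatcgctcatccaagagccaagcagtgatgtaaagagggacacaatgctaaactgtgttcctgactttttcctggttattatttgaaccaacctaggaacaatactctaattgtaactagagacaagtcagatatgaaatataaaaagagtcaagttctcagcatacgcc
Ptx3 (chr3:66219637-66219886, plus strand): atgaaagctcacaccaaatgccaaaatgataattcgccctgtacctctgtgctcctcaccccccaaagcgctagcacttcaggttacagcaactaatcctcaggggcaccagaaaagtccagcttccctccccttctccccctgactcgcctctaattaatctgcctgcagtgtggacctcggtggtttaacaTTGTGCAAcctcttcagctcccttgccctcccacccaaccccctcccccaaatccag
Lcn2 thus held 1 match of each of the first 2 motifs, Saa3 held 4 C/EBP cores, Slpi held 3 and Ptx3 held 1, while the Wfdc18 window held none of the motifs although Wfdc18 was among the genes lowest with MAL. A match is a match of letters and no measure of binding.

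The contrasts by which the genes were picked did not include the MEF arrays, but earlier results of these data were known at the time. The probe set of each gene was also taken by its mean over all arrays, those of the MEFs included. The p-values in the MEFs are therefore not shown to be independent of the choice. The comparison of KO with WT MEFs was tested in a limma fit over the 6 arrays with serum time as a factor. The 3 serum times stand in for replicates there, so a difference between genotypes and one between the cell lines that carry them cannot be told apart. Of the 8 genes that passed the filter on low values, 5 fell and 1 rose in KO MEFs. Over all 11933 genes 42.1% passed the test, 20.8% lower and 21.2% higher. The KO and WT arrays did not overlap for these 6 genes, beside 41.2% of all genes. The genes that fell were Lcn2, Saa3, Lbp, Slpi and Il1rn, the gene that rose was Ptx3, and Hp and Wfdc18 did not pass. Serpina3n stayed under the median of each of the 6 arrays and was not tested. Lcn2 passed the filter only through its WT arrays, so the counts over these 8 genes are given as a description.

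Lcn2 read 2.93, 3.28 and 3.35 in KO MEFs across the 3 serum times, against 8.99, 9.02 and 10.48 in WT MEFs. All 3 KO levels lay below the array medians and no WT level came near them. With the KO levels raised to the array medians Lcn2 was at least 48.7-fold lower in KO MEFs. Since it passed the filter only through its WT arrays, its p is not given. Saa3 read 4.12, 3.94 and 4.10 in KO MEFs, against 6.78, 6.28 and 6.74 in WT MEFs. The spread within each genotype was small beside the gap, and the coefficient was -2.55 (SE 0.13, 5.84-fold lower, adjusted p = 5.33e-05). Il1rn read 4.22, 4.51 and 3.82 in KO MEFs, against 7.53, 7.25 and 7.85 in WT MEFs. Its coefficient was -3.36 (SE 0.24, adjusted p = 1.87e-04), a fall of at least 10.1-fold, and in a fit of every probe set its other 2 gave -2.50 (SE 0.14) and -1.84 (SE 0.20).

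Lbp read 7.07, 7.17 and 7.03 in KO MEFs, against 8.18, 8.29 and 8.56 in WT MEFs. Slpi read 8.49, 8.23 and 8.89 in KO MEFs, against 10.21, 9.60 and 10.14 in WT MEFs. Neither gene had a KO level within its WT range. The decreases were smaller than those of the genes above, with coefficients of -1.25 for Lbp (SE 0.14, 2.38-fold, adjusted p = 0.00111) and -1.45 for Slpi (SE 0.14, 2.73-fold, adjusted p = 6.40e-04). The 2 genes that did not pass overlapped between the genotypes. Hp lay between 5.32 and 5.53 in KO MEFs and between 5.32 and 5.83 in WT MEFs, with a coefficient of -0.11 (95% interval -0.52 to 0.30, adjusted p = 0.647). Wfdc18 lay between 4.19 and 4.99 in KO MEFs and between 4.30 and 5.39 in WT MEFs, with a coefficient of -0.15 (95% interval -0.49 to 0.19, adjusted p = 0.436). In 10T1/2 control cells Hp read 9.77 and Wfdc18 12.20, though the labels do not say whether the arrays of both kinds of cell were normalized as 1 set.

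Ptx3 moved the other way. It read 12.02, 11.91 and 12.57 in KO MEFs across the 3 serum times, against 5.15, 7.43 and 9.39 in WT MEFs. The KO level was high before serum and differed by at most 0.55 from that level afterwards, and the WT level was higher at each later time. Ptx3 rose in KO MEFs with a coefficient of 4.84 (SE 0.63, n = 3 pairs, 28.7-fold, adjusted p = 0.00182), and the difference was 6.87, 4.48 and 3.18 at 0, 30 and 90 min. Its second probe set read 5.15, 4.85 and 4.37 in KO MEFs, against 3.32, 3.59 and 3.52 in WT MEFs. Its coefficient was 1.31 (SE 0.20) in the fit of every probe set. All 3 WT levels of this probe set lay below the array medians, so the size of its difference is open. It passed the filter only through its KO arrays, so its p is not given. The 2 probe sets share the direction and differ in size.

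**Figure D3:**
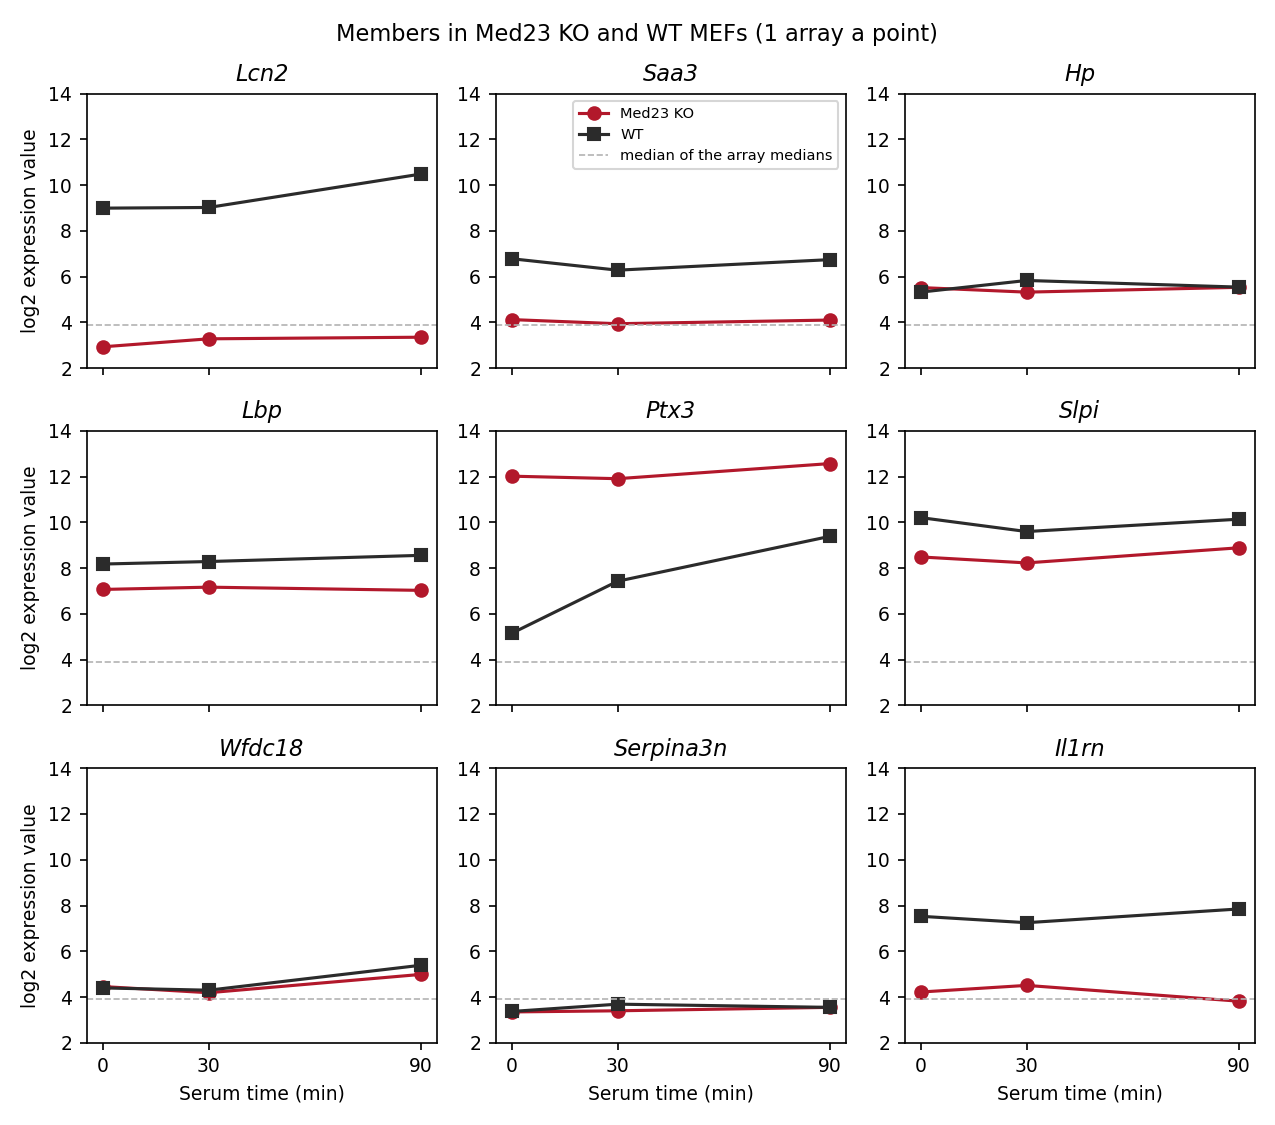
Log2 expression values (vertical axis) of the 9 genes in Med23 KO and WT MEFs against serum time in min, 1 array a point, with the median of the 6 array medians as a dashed line. KO lies below WT at every time for Lcn2, Saa3, Lbp, Slpi and Il1rn and above it for Ptx3, while Hp and Wfdc18 overlap.

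Few of these genes passed the test for serum. At 30 min 0 of the 8 passed in limma (0.251% of all genes), with 1, Slpi, at an unadjusted p under 0.05 (coefficient -0.44, adjusted p = 0.612). At 90 min Wfdc18 rose by 0.76 (SE 0.17, n = 2 pairs, adjusted p = 0.0393, beside 4.56% of all genes). The call was lost when every probe set was tested (adjusted p = 0.0504) and when open levels were raised to the array medians (adjusted p = 0.0647), and held without the filter (adjusted p = 0.0402). Lcn2 had a coefficient of 0.95 (95% interval 0.16 to 1.75, adjusted p = 0.109) and Ptx3 one of 2.40 (95% interval 0.53 to 4.26, adjusted p = 0.0933), and neither passed. Taken by genotype without a test, the 90 min difference of Ptx3 was 0.55 in KO MEFs and 4.24 in WT MEFs, and that of Lcn2 was 0.42 and 1.49 with both KO levels open. The 90 min response in KO MEFs minus that in WT MEFs was negative beyond the 2-fold limit for both, -3.69 for Ptx3 and -1.07 for Lcn2 (3.1% of all genes). So was the 30 min one for Ptx3 (-2.39, 0.779%). The second probe set of Ptx3 gave -0.98 at 90 min and -0.57 at 30 min.

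Set side by side, loss of Med23 in the MEFs and its knockdown in 10T1/2 cells without MAL went with lower levels of Lcn2 (-5.61 or below in KO MEFs and -2.44 in knockdown cells), Saa3 (-2.55 and -2.29), Il1rn (-3.36 and -2.18) and Slpi (-1.45 and -1.33). Lbp had -1.25 and -0.61, Hp -0.11 and -0.91, and Wfdc18 -0.15 and -1.89. Ptx3 had 4.84 and 1.48, while its second probe set had -0.56 in knockdown cells. The second value of each pair comes from a single pair of arrays and was not tested.

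Of 11 macrophage and neutrophil markers, 2 or 3 stood above the array median on each 10T1/2 array, and the log2 of their summed level lay between 7.12 and 7.16. Ptprc, the pan-leukocyte gene, and Alb, the albumin gene of hepatocytes, exceeded the array median on 0 of the 10 arrays. Of 7 hepatocyte markers 3 or 4 stood above the median of each 10T1/2 array, among them Apoa1 at 4.42 to 4.72. Of 7 epithelial markers 1 or 2 did, and Epcam, an epithelial adhesion gene, read 6.09 with MAL and knockdown, 6.41 with MAL, 6.05 with the knockdown and 6.22 in the control. None of the tested markers on these 3 lists differed by 2-fold with MAL. Of 5 adipocyte markers 2 or 3 stood above the median of each 10T1/2 array, among them Pparg at 6.28 to 6.87. Of the 4 tested, 1, Fabp4, was lower with MAL in knockdown cells (-1.34), with its level with MAL and knockdown open. With the knockdown alone Fabp4 was higher (1.59, its control level open) and Lipe lower (-1.03). In KO MEFs Fabp4 was called lower with all its KO levels open. It did not pass in limma once the array medians stood in for them (adjusted p = 0.0564). Of 8 tested fibroblast markers, 1 was called higher in KO MEFs and 4 lower, beside 21.2% and 20.8% of all genes. Col1a2 was higher (3.89), and S100a4 (-1.94), Pdgfrb (-1.39), Fn1 (-0.85) and Pdgfra (-0.62) were lower. The call of Pdgfra was lost when a serum time was left out. In the MEFs, Cd68 and S100a8, 2 of 4 tested macrophage and neutrophil markers, were called lower in KO cells with all their KO levels open. Once the array medians stood in for these levels neither passed in limma (adjusted p = 0.12 for Cd68 and 0.346 for S100a8). There were 2 markers above the array median on each KO array and 3 or 4 on each WT array. Their summed level lay between 6.84 and 6.94 in KO MEFs and between 7.12 and 7.24 in WT MEFs on the log2 scale, and their part in the decrease of the acute-phase genes was not tested.

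Related genes that the choice did not use were read from fixed lists. Of 22 other antiprotease genes measured in 10T1/2 cells, 2 were at least 2-fold lower with MAL in knockdown cells and 4 without the knockdown, and 0 and 3 were higher, beside 3.72% and 4.11% of all genes lower and 8.41% and 4.31% higher. The 4 genes lower without the knockdown all belong to the family of Slpi and Wfdc18, with the same four-disulfide core. They were Wfdc21 (-2.20 in knockdown cells and -3.26 without the knockdown), Wfdc17 (-0.65 and -2.93), Wfdc12 (-0.79 and -2.31) and Wfdc3 (0.00 and -1.81). Wfdc21, for one, read 3.59 with MAL and knockdown, 4.12 with MAL, 5.79 with the knockdown and 7.38 in the control, and these 4 genes were also lower with the knockdown alone, by -1.59, -2.23, -2.21 and -3.33 in the same order. In the RefSeq gene table Wfdc17, Wfdc18 and Wfdc21 lie next to each other on chromosome 11, with 0 protein-coding genes between them. The fifth measured member of the family in the list, Wfdc1, had -0.14 and 0.21. The 3 genes higher without the knockdown were serpins. Serpinb9, an inhibitor of granzyme B, had 0.38 in knockdown cells and 2.11 without the knockdown, Serpinb6a had 0.43 and 1.11, and Serpinb1a, an inhibitor of neutrophil proteases, had -2.60 and 1.09. Other serpins stayed within 2-fold, such as Serpinf1 (-0.49 and -0.21) and Serpinh1 (-0.24 and -0.17).

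Most other acute-phase genes were not expressed at levels that could be read. Only 8 of 22 were measured in 10T1/2 cells, and the liver genes Saa1, Saa2, Orm1, Crp and Fga were not among them. Of the 8, 1 was lower with MAL in knockdown cells and 2 without the knockdown, and 0 and 1 were higher. Of all genes 3.72% and 4.11% were lower and 8.41% and 4.31% higher. Cp encodes ceruloplasmin, the copper-carrying ferroxidase of plasma. It read 9.09 with MAL and knockdown, 6.45 with MAL, 9.07 with the knockdown and 8.99 in the control, so that MAL alone stood apart from the other 3 arrays. Mt2, a metallothionein gene, was the gene that was lower in knockdown cells (-1.43, and -0.91 without the knockdown), and Itih2, a gene of an inter-alpha-trypsin inhibitor chain, was the higher one (0.60 in knockdown cells and 1.83 without the knockdown). Steap4, a metalloreductase gene of inflamed fat, had MAL differences of -0.82 in knockdown cells and -1.84 without the knockdown. The level of Itih2 in the control and that of Steap4 with MAL alone were open, so the size of these differences without the knockdown is open too. Of 8 measured complement genes, 2 were lower with MAL in either setting and 0 higher, beside the same shares of all genes. The 2 lower complement genes were Serping1, the gene of the C1 inhibitor, with -1.65 in knockdown cells and -3.24 without the knockdown, and C1ra, a C1 protease gene, with -1.82 and -2.73. In KO MEFs 4 of 8 tested acute-phase genes fell and 2 rose, beside 20.8% and 21.2% of all genes. Cp fell, with a coefficient of -2.31 (SE 0.15, limma adjusted p = 1.28e-04), and Steap4 (5.61, SE 0.19, limma adjusted p = 1.16e-05) and Itih2 (1.04, SE 0.12, limma adjusted p = 0.00124) rose. The KO levels of the other 3, Mt1, Mt2 and Hpx, were all open. These 3 genes passed the filter only through their WT arrays, so the counts over the 8 genes are given as a description. With open levels raised to the array medians, Mt1 was at least 276-fold and Mt2 at least 68-fold lower in KO MEFs. Hpx did not then pass in limma (adjusted p = 0.301), and its call was also lost without the 0 min or the 30 min arrays.

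Genes of the transcription factors and inhibitors upstream of the acute phase were read next. Of 16 measured, 6 were at least 2-fold lower in knockdown cells and 9 without the knockdown, and 1 and 0 were higher, with medians of -0.78 and -1.09. Of all genes 3.72% and 4.11% were lower and 8.41% and 4.31% higher, with medians of -0.11 and 0.01. The genes lower in both settings included Nfkbiz, the gene of an IkB protein needed for Lcn2 expression in mouse cells (-1.53 in knockdown cells and -2.33 without the knockdown), the IkB genes Bcl3 (-1.61 and -2.04) and Nfkbie (-1.02 and -2.30), and the C/EBP genes Cebpd (-1.44 and -1.32) and Cebpa (-1.20 and -1.32). Cebpb had -0.81 and -1.08, and Stat3 had 0.13 and -0.41. Nr3c1, the glucocorticoid receptor gene, was the gene that stood higher in knockdown cells (1.41, and 0.58 without the knockdown). With the knockdown alone 0 of the 16 differed by 2-fold, beside 7.62% of all genes. In KO MEFs 8 of 17 fell and 3 rose, beside 20.8% and 21.2% of all genes. Among them were Cebpb (-2.05, SE 0.18, adjusted p = 3.79e-04), Nfkbie (-2.54, SE 0.25, adjusted p = 6.37e-04) and Stat3 (0.90, SE 0.13, adjusted p = 0.00241). The calls of these 3 held without any 1 serum time, while those of the other 8 did not.

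**Figure D4:**
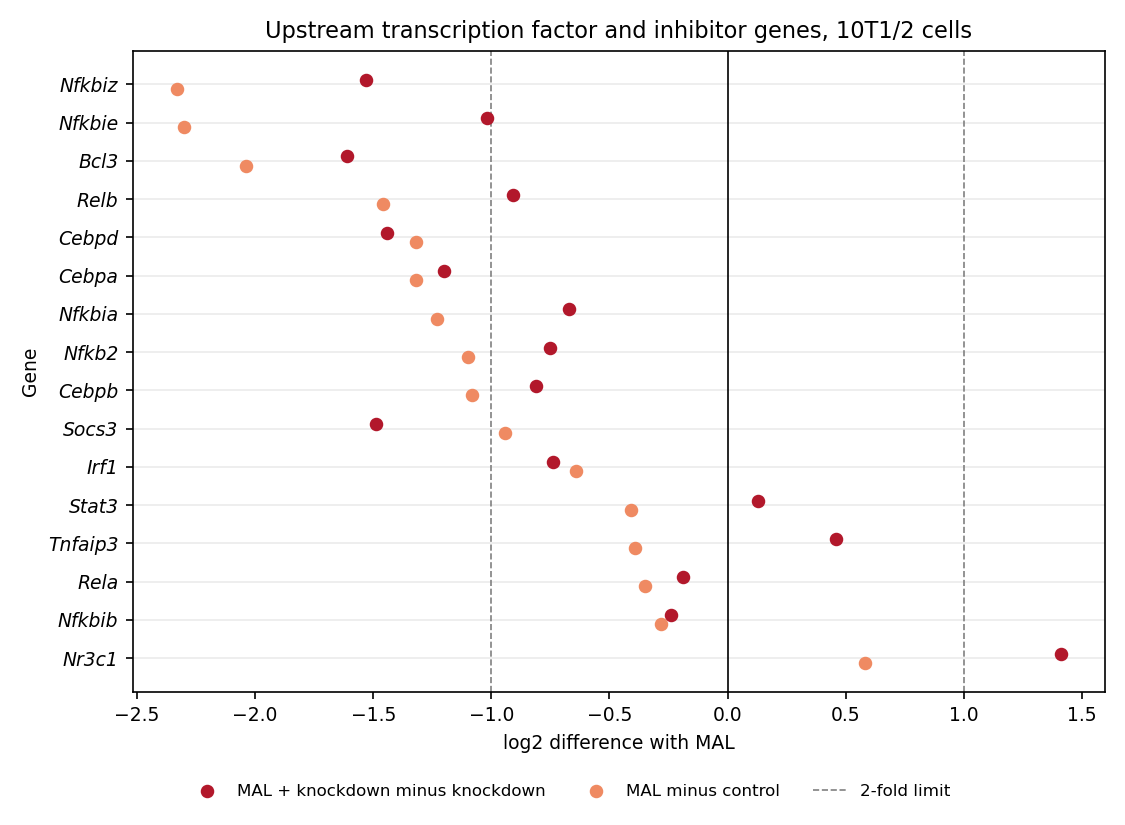
Log2 difference with MAL (horizontal axis) of 16 genes of transcription factors and inhibitors upstream of the acute phase, in cells with the Med23 knockdown and in cells without it, 1 pair of arrays a point. Without the knockdown every gene but Nr3c1 lies below 0 and 9 lie beyond the 2-fold limit, and with it 6 do.

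By their differences from the control (MAL, knockdown and both), the 5 genes nearest to the median of the members (-3.56, -1.33 and -3.45) were Matn4 (Euclidean distance 0.49), Serping1 (0.50), Wfdc21 (0.52), Gfra1 (0.72) and Col8a2 (0.76), over 3 differences of 4 arrays. Matn4 and Col8a2 encode matrix proteins and Gfra1 a receptor of the growth factor GDNF.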

How the data were processed

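Total RNA of 10 cultures was labelled with biotin and hybridised to Affymetrix arrays, per the labels' protocols. The authors deposited log2 values for every probe set on each array, and RMA and MAS5 are named per the submitters' processing notes, without role or version. The log2 scale was read from the values. An array has no read depth. The members and gene lists were chosen with earlier results of these data known.

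Symbols came from the platform annotation, updated by Entrez identifier to RefSeq (GRCm38.p6): 34945 probe sets had 1 symbol and 932 several. A gene was tested when its highest value exceeded the median of all probe sets on the arrays concerned (3.90 in MEFs, 3.67 in 10T1/2 cells), which left 11933 and 12440 genes. MEFs were fitted with limma 3.58.1 in R 4.3.3 (genotype plus serum time, 2 residual and 4.18 prior degrees of freedom). P-values are two-sided, adjusted by Benjamini-Hochberg over all genes, at 0.05, and cover no spread between replicates. Differences of single arrays were counted at an absolute log2 value of 1. Folds written "at least" have open levels raised to the array median. Named genes were the members, listed genes and the 5 nearest genes, with list examples picked after their values were seen. In the MEFs the examples came from calls that held without any 1 serum time, unless open levels or a lost call are stated. In simulated MEF data of 11933 genes the fit recovered 57% of 100 genes changed by 1 and 99% of 100 changed by 2 on the log2 scale. It made 9 false calls. The simulation had independent noise and no serum effect, and few genes changed, while 42.1% were called in the data. These shares therefore do not carry over to the real arrays. Alternatives were quantile normalization, no filter, every probe set or the mean of a gene's probe sets, an intensity trend, a limit of 2, open levels raised, and leaving out a serum time.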

Additional observations from a re-analysis of the deposited data

Results flagged for a closer look

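Several members had differences of opposite sign in cells with and without the other treatment, each from 1 pair of arrays, and none of these contrasts was tested. The MAL difference of Saa3 was 0.58 in knockdown cells and -2.86 without the knockdown. The knockdown difference of Saa3 was 1.15 with MAL and -2.29 without MAL, that of Hp was 2.25 and -0.91, and that of Lbp was 1.45 and -0.61. For Wfdc18 it was 0.09 and -1.89. For Lcn2 it was 0.80 and -2.44, where both levels with MAL were at or below the array median, and the first value became -0.06 once the array medians stood in for them.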

How the results depend on the processing

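The MEF calls for KO against WT, 5 members lower and 1 higher, kept their counts under every alternative run, including each fit without 1 serum time, although the calls over all genes numbered 2671, 2398 and 4903 in those fits without 0, 30 or 90 min, against 5018, and 8380 over probe sets. Over all genes, the 30 min calls numbered 59 with an intensity trend, 46 over probe sets and 2 with open levels raised, against 30, and the 90 min calls 819 with open levels raised, against 1612. At 90 min of serum the count of members higher was 0 when every probe set was tested and 0 with open levels raised, an alternative chosen after seeing the data, against 1. At a limit of 2 on the log2 scale, the MAL difference in knockdown cells minus that without the knockdown was at least 2 for 4 members, against 5 at the limit of 1. It was -2 or below for 0 members, against 1 at -1 or below. At the limit of 2 the knockdown without MAL had 0 members higher and 3 lower, and with MAL 1 higher. With the mean of a gene's probe sets the knockdown had 0 members higher without MAL and 2 with MAL, where Ptx3 gave 0.46 and 0.29 and Lbp gave 0.79 with MAL. The MAL differences of Lbp were then -1.38 in knockdown cells and -2.53 without the knockdown, since its second probe set lies at or below the array medians. After quantile normalization 2 members were lower with the knockdown in cells with MAL, as Slpi gave -1.15, and Saa3 gave 0.96. Of 324 single values under an alternative, 303 kept their direction and side of the limit, 15 dropped below it and 1 passed it. The other 5 turned in sign without having passed a limit: Hp in KO MEFs (0.10 without 30 min), Lcn2 at 30 min of serum (-0.01) and with the knockdown and MAL (-0.06), both with open levels raised, and, after quantile normalization, Saa3 at 90 min (0.04) and Wfdc18 with the knockdown and MAL (-0.10). The labels give no replicate numbers, and the fit paired KO with WT MEFs by serum time only. The 10T1/2 differences have no residual degrees of freedom and no replicate check, and levels near the array median limit the folds of Lcn2.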

Other observations

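Receptors that take up or sense these proteins and cytokines also differed. In 10T1/2 cells the receptor genes of LIF and oncostatin M, cytokines that raise acute-phase genes, had MAL differences of 1.55 for Lifr and 1.25 for Osmr in knockdown cells and of -1.20 and -0.78 without the knockdown. The endotoxin receptor gene Cd14, partner of the Lbp protein, had -1.31 and -1.11, and Tlr2 had -0.90 and -1.65. Il6 read 3.43 with MAL and knockdown, 3.47 with MAL, 3.71 with the knockdown and 5.09 in the control, and of these 4 levels the first 2 lay below their array medians. In KO MEFs the receptor genes Cd14 (-2.68, SE 0.25, adjusted p = 4.87e-04), Tlr4 (-1.37, SE 0.12, adjusted p = 4.38e-04) and Tlr2 (-1.81, SE 0.15, adjusted p = 3.66e-04) fell in the limma fit, as did Il1rap, a subunit of the IL-1 receptor (-1.27, SE 0.13, adjusted p = 6.67e-04). Ly96, whose protein partners TLR4, did not pass (0.23, SE 0.15, adjusted p = 0.266). Lifr rose (3.45, SE 0.23, adjusted p = 1.43e-04). Lrp2, the endocytic receptor megalin, which takes up the Lcn2 protein, had all 3 WT levels below the array medians and was at least 4.53-fold higher in KO MEFs. Among 12 tested receptors and partners 6 fell and 4 rose, beside 20.8% and 21.2% of all genes. Of those that fell, Cd163 had 3 KO and 2 WT levels open. With these raised to the array medians it did not pass in limma (adjusted p = 0.342). Of those that rose, Lrp2 passed the filter only through its KO arrays, and the calls of Il1r1 and Tnfaip6 were lost when a serum time was left out. The counts are therefore given as a description.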
